A study of Homo sapiens with 27 samples.

Results

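The 10 genes CDKN1A, MDM2, GDF15, TP53I3, SESN1, SESN2, BBC3, BAX, FAS and RRM2B, all known transcriptional targets of the tumour suppressor p53, were followed through RNA-seq of edited 786-O cells. They were taken by symbol from the annotation of the deposited count table, and all 10 of 10 were found among its 57773 rows and lay among the 17016 genes with enough reads to test. 786-O is an established, VHL-deficient line of clear cell renal cell carcinoma cells, and 27 libraries were made from 9 populations of it, with 3 libraries each. Every population, the control included, had been infected with lentivirus carrying spCas9, a guide RNA and a puromycin or neomycin resistance gene. The control population carried sgCtrl. The 8 mutant populations were labelled sgKDM5C #4 or sgKDM5C #5, sgKDM5D #2 or sgKDM5D #4, and the 4 combinations sgKDM5C #4/sgKDM5D #2, sgKDM5C #4/sgKDM5D #4, sgKDM5C #5/sgKDM5D #2 and sgKDM5C #5/sgKDM5D #4. They were infected populations and were not described as single-cell clones. KDM5C, on the X chromosome, and KDM5D, its homologue on the Y chromosome, remove methyl groups from lysine 4 of histone H3. The labels do not say whether the 3 libraries of a population came from separate cultures, so p-values measure the spread between these libraries, which may be technical.

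p53 is a transcription factor that is held at a low level by the ubiquitin ligase MDM2 and accumulates when DNA breaks activate the kinases ATM, ATR and CHK2. It then binds paired decamer half-sites near its target genes and raises their transcripts, among them inhibitors of the cell cycle, promoters of apoptosis, repair enzymes and MDM2 itself, which closes a feedback loop. Cas9 cuts DNA, and a break made by Cas9 can start this response in cells with intact p53. The question put to the data was whether p53 target transcripts stood higher in the edited populations than in sgCtrl cells.

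The genome around the start of each gene was searched for the p53 response element to show what the 10 genes share in sequence. The p53 response element consensus was searched as 2 half-sites of 10 bases with no spacer, on both strands since it is symmetric, with at most 2 mismatches and with the central C and G of each half-site intact, within 2500 bases of the annotated start. Of 19404 protein-coding genes in GRCh37, 721 (3.72%) held a match in this window, and 6 of the 10 genes did: CDKN1A, MDM2, GDF15, BAX, FAS and RRM2B. The 5 matches printed below are shown 5′ to 3′ on the strand of the gene, with the 20 matching bases in capitals.
CDKN1A: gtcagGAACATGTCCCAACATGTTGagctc
MDM2: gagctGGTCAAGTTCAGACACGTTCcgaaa
GDF15: attgcCATCTTGCCCAGACTTGTCTcgaac
BAX: cccccGGGCAGGCCCGGGCTTGTCGcccgc
FAS: ctcctGGACAAGCCCTGACAAGCCAagcca

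The CDKN1A match lay at chr6:36644226-36644245, 2256 bases upstream of the start of its canonical transcript and touching an exon of another annotated transcript. That of MDM2 lay in an intron at chr12:69202703-69202722, 756 bases downstream of the start, and that of GDF15 at chr19:18496118-18496137, 840 bases upstream. The BAX match lay at chr19:49458470-49458489 in an intron of the canonical transcript, and the FAS match at chr10:90751066-90751085, 662 bases downstream of the outer start of the gene in an exon of an annotated transcript. For FAS no transcript carried the canonical tag, so the outer start of the gene was used. The match of RRM2B lay in an intron and had 1 mismatch, while the 5 others had 2. For TP53I3, SESN1, SESN2 and BBC3 no such match lay in the window, which says only that these letters were not found there.

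The libraries held 20172482 to 43383929 counted reads each (median 26290323). KDM5C transcript stood at 119 to 132 CPM (reads scaled to a common library size by TMM) in sgCtrl libraries and at 30.9 to 45.4 CPM in all libraries with a KDM5C guide. KDM5D transcript was not lower in populations labelled with a KDM5D guide. It stood at 11.4 to 14.5 CPM in sgCtrl and at 19 to 45.4 CPM in those populations. In libraries with a KDM5C guide it stood at 24.1 to 47.7 CPM, with means of 28.4 CPM in sgKDM5C #4 and 44.6 CPM in sgKDM5C #5. All mutant libraries thus lay above all sgCtrl libraries, with or without a KDM5D guide. Transcript levels therefore do not check the KDM5D labels, and populations with a KDM5D guide are named by their labels throughout. The paper examined KDM5C and KDM5D protein in 786-O cells with these guides by western blot, which was not assessed here. The 6 measured genes of a kidney marker list, PAX8, PAX2, EPAS1, KRT8, KRT18 and VIM, had medians above 1 CPM over the libraries. Their summed level was 2760 to 3480 CPM, of which VIM held 1520 to 2070 CPM. VIM and EPAS1 are not particular to epithelial cells. Of 9 markers of blood, endothelial, liver, pancreatic and muscle cells, 0 had a median above 1 CPM (summed level 0.786 to 2.01 CPM). The highest single value among them was 1.5 CPM, for MYH11. The columns of 4 libraries stood last in the table, out of population order: sgCtrl replicate 2, sgKDM5C #5 replicate 2, sgKDM5C #4/sgKDM5D #2 replicate 1 and sgKDM5C #4/sgKDM5D #4 replicate 3. These 4 had the highest scores on the leading component of variation within populations, which held 41% of that variation, and results that rest on them are given with and without them.

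A gene was called where edgeR's quasi-likelihood test gave a Benjamini-Hochberg adjusted p under 0.001 over all tested genes and the change exceeded 1.5-fold, the thresholds of the study. Over the 80 pairs of a p53 target with a mutant population, 9 were called higher than sgCtrl and 3 lower. These are 11.2% and 3.75% of the pairs, beside 4.84% called higher and 3.45% called lower over all tested genes, so the share called lower was near that of all genes. At an adjusted p under 0.05 with any fold, 24 pairs were higher and 6 lower, beside 15.5% and 15.6% of pairs over all genes. With 3 libraries a group, lack of overlap with sgCtrl was common: by population, 14.8% to 26.5% of all genes lay wholly above the sgCtrl libraries and 14.4% to 24.7% wholly below, beside 0 to 6 of the 10 genes above and 0 to 6 below. The 8 comparisons share the 3 sgCtrl libraries and are therefore not independent of each other. Since RNA was taken from whole populations, fewer cells that transcribe a gene and less RNA per cell cannot be told apart.

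**Figure D1:**
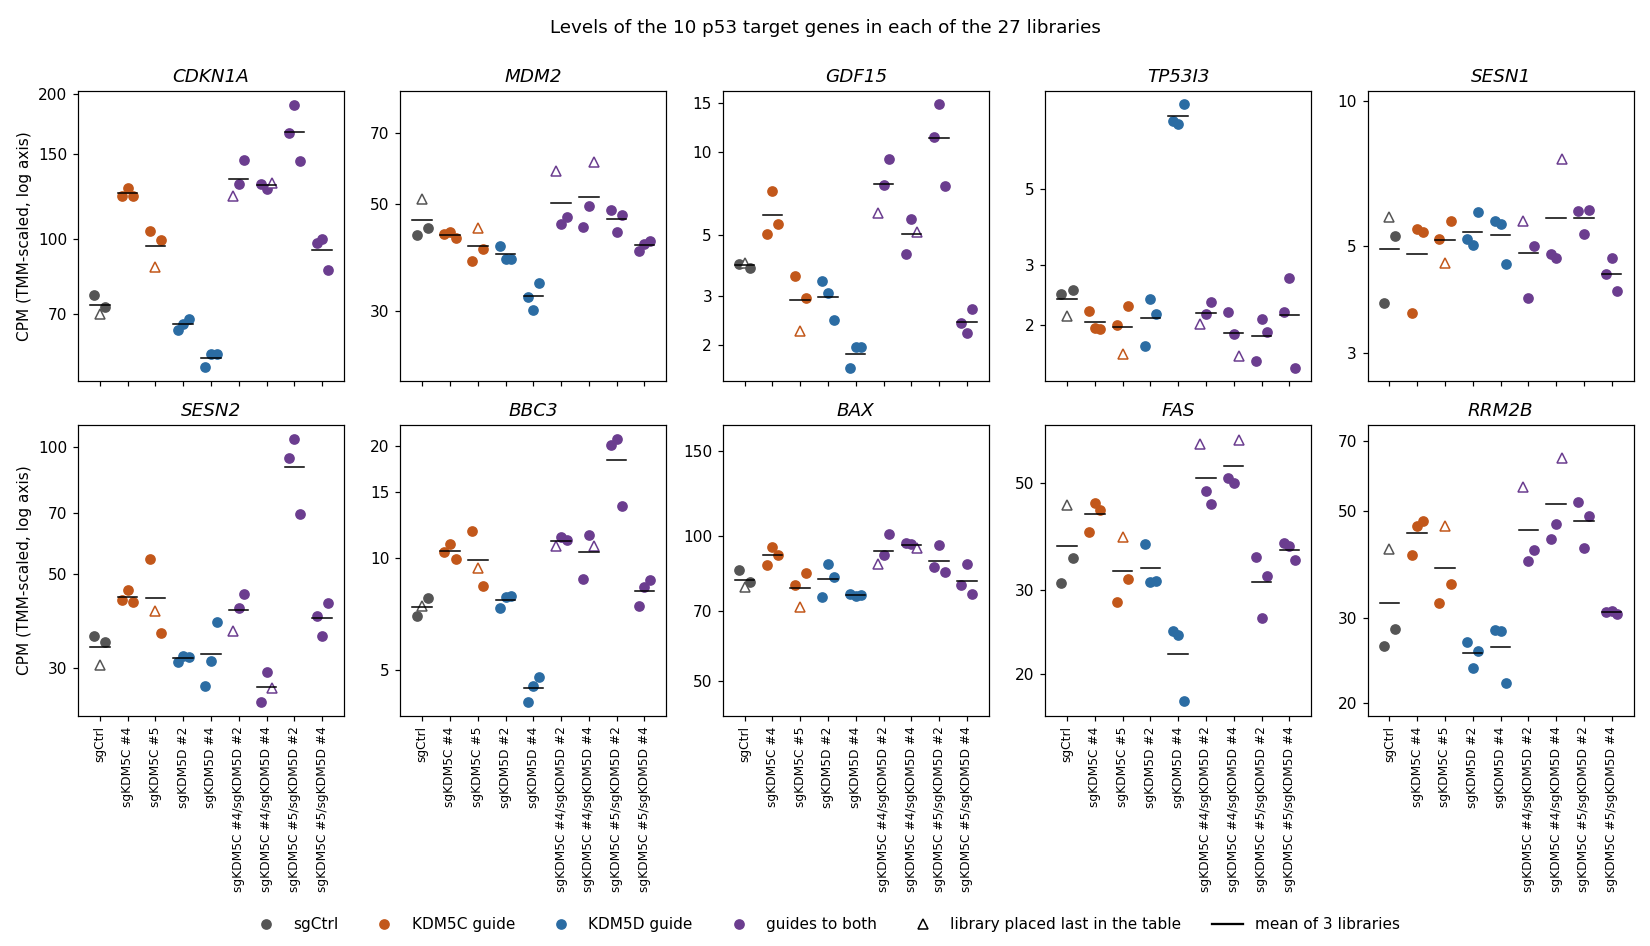
Level of each p53 target gene in CPM, scaled by TMM and drawn on a log axis, in each of the 27 libraries, with a bar at the mean of the 3 libraries of a population and open triangles for the 4 libraries placed last in the table. TP53I3 stood at 7.73 to 8.83 CPM in sgKDM5D #4 and at 1.5 to 2.74 CPM elsewhere, while CDKN1A, GDF15, SESN2 and BBC3 reached their highest levels in sgKDM5C #5/sgKDM5D #2.

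CDKN1A, which encodes the cyclin-dependent kinase inhibitor p21 and arrests the cell cycle, was the p53 target called in the most populations. It stood at 76.6, 70.1 and 72.5 CPM in the sgCtrl libraries and at 123, 128 and 123 CPM in sgKDM5C #4. The combination sgKDM5C #4/sgKDM5D #2 gave 123, 130 and 146 CPM, sgKDM5C #4/sgKDM5D #4 gave 130, 127 and 131 CPM, and sgKDM5C #5/sgKDM5D #2 gave 166, 190 and 145 CPM. All libraries of these 4 populations lay above all sgCtrl libraries, and the 3 populations with sgKDM5C #4 overlapped with each other. The log2 fold changes against sgCtrl were 0.77 ± 0.08 (SE, n = 3 libraries per population, as for every fold change below) in sgKDM5C #4, 0.86 ± 0.08 in sgKDM5C #4/sgKDM5D #2, 0.83 ± 0.08 in sgKDM5C #4/sgKDM5D #4 and 1.19 ± 0.08 in sgKDM5C #5/sgKDM5D #2, with edgeR adjusted p between 2.1e-11 and 8.7e-08. These calls were kept in each of the 27 fits that left out 1 library and in all 9 other settings at the same thresholds. Of the 4 changes, just that in sgKDM5C #5/sgKDM5D #2 was over 2-fold.

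CDKN1A stood lower in sgKDM5C #5 alone than in sgKDM5C #4 alone. The difference was -0.36 ± 0.08 on the log2 scale (edgeR adjusted p = 0.0025), under the 1.5-fold threshold. With sgKDM5D #2 added, sgKDM5C #5 instead held the highest mean of the 9 populations, 167 CPM. The sgKDM5C #5 libraries stood at 104, 87.6 and 99.4 CPM, which is a log2 fold change of 0.41 ± 0.08 (edgeR adjusted p = 0.00059), and the sgKDM5C #5/sgKDM5D #4 libraries at 98.1, 100 and 86.2 CPM (0.38 ± 0.08, adjusted p = 0.001). Both lay above all sgCtrl libraries but under the 1.5-fold threshold. In sgKDM5D #4 the level was 54.3, 57.9 and 57.7 CPM, below all sgCtrl libraries, with a log2 fold change of -0.37 ± 0.08 (adjusted p = 0.00066). Its 50 neighbours on chromosome 6 had a median of 0.32 there, and with neighbours removed the change was -0.68 and was called. sgKDM5D #2 stood at 64.9, 66.6 and 68.2 CPM, also below the sgCtrl libraries without overlap, and its change of -0.13 ± 0.08 did not pass (edgeR adjusted p = 0.27). The lowest CDKN1A levels of the 9 populations were thus those labelled with a KDM5D guide alone.

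MDM2, the ubiquitin ligase that limits p53 and is itself a p53 target, was called in 0 of 8 populations by edgeR and by DESeq2, and 2 populations had an unadjusted p under 0.05, beside 40.3% of all gene-by-population pairs. It stood at 43, 51.1 and 44.6 CPM in sgCtrl, and 5 of the 8 mutant populations overlapped with that range. In the populations where CDKN1A was called, the log2 fold changes of MDM2 were -0.10, 0.12, 0.16 and 0.01, with 95% intervals that together reached from -0.30 to 0.37. The 50 neighbouring genes on chromosome 12 had medians of -0.28, -0.24, -0.23 and -0.29 there, and with neighbours removed the changes of MDM2 were 0.17, 0.36, 0.39 and 0.30 (edgeR adjusted p = 0.24, 0.0094, 0.0037 and 0.018), with 0 calls. The largest change was in sgKDM5D #4, with 32.1, 30.1 and 34.2 CPM, below all sgCtrl libraries (-0.53 ± 0.10, edgeR adjusted p = 9e-05). This change is 1.44-fold, under the threshold. In sgKDM5D #4 the same neighbours had a median of -0.42, and with it removed the change of MDM2 was -0.11 (adjusted p = 0.42).

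**Figure D2:**
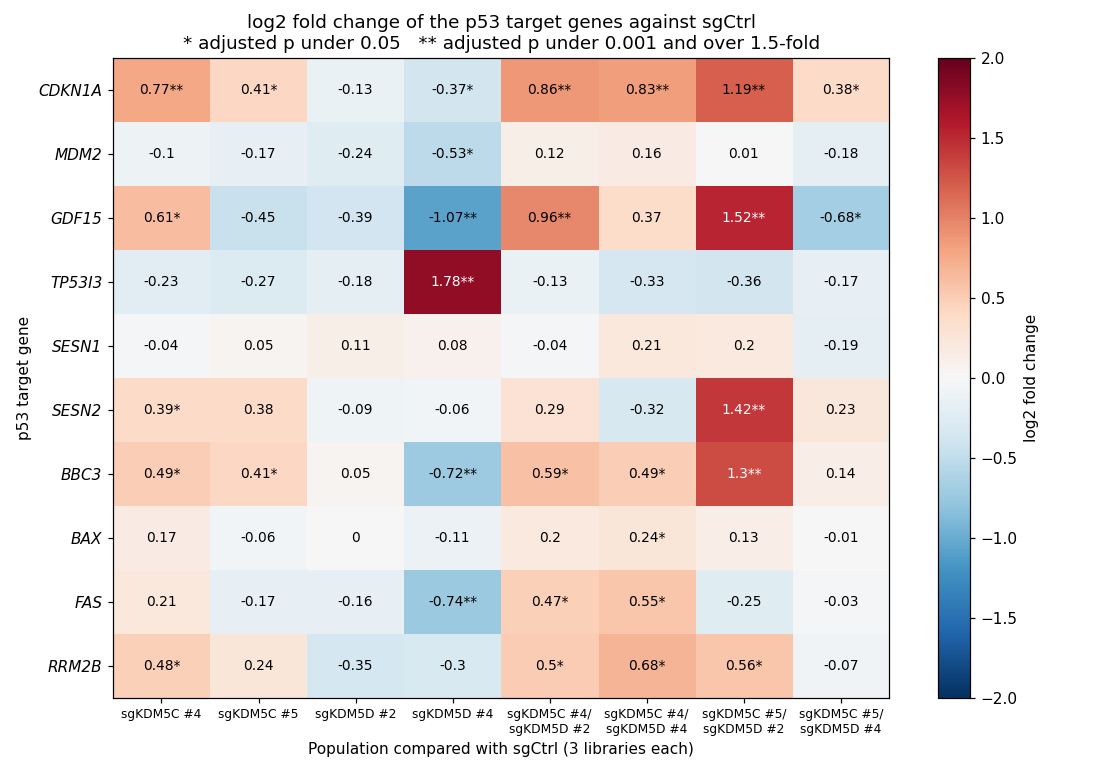
log2 fold change against sgCtrl for each p53 target gene (rows) in each mutant population (columns), from red for higher to blue for lower, with 2 asterisks for a call and 1 for an adjusted p under 0.05. CDKN1A was called in 4 populations and MDM2, SESN1, BAX and RRM2B in 0, and 3 of the 4 calls of sgKDM5D #4 were lower.

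GDF15 encodes a secreted cytokine that p53 and the integrated stress response both raise, and it had the widest range of the 10 genes, 2.49 on the log2 CPM scale between population means. The sgCtrl libraries stood at 3.94, 3.97 and 3.81 CPM. In sgKDM5C #5/sgKDM5D #2 they stood at 11.3, 14.9 and 7.49 CPM and in sgKDM5C #4/sgKDM5D #2 at 5.98, 7.58 and 9.44 CPM. All libraries of both combinations lay above the sgCtrl libraries, and the spread within each was wide. On the log2 scale the change was 1.52 ± 0.20 (edgeR adjusted p = 1.1e-06) in the first and 0.96 ± 0.21 (adjusted p = 0.00089) in the second. The second call was the least stable of all. It was lost in 20 of the 27 fits that left out 1 library, with the smallest change, 0.79 (edgeR adjusted p = 0.011), without sgKDM5C #4/sgKDM5D #2 replicate 3. It was also lost in 5 of 9 other settings at the same thresholds. Among these were the fit of just the populations compared (0.96, adjusted p = 0.0055) and that without the 4 libraries placed last (1.13, adjusted p = 0.0016).

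GDF15 went the other way in sgKDM5D #4, where it stood at 1.65, 1.96 and 1.97 CPM, below all sgCtrl libraries (-1.07 ± 0.24, edgeR adjusted p = 0.00056). This call was lost whenever any 1 of the 3 sgCtrl or 3 sgKDM5D #4 libraries was left out, with changes of -1.13 to -1 and adjusted p up to 0.004, and without the 4 libraries placed last (-1.05, adjusted p = 0.0019). The guides of KDM5C also stood apart. sgKDM5C #4 gave 5.05, 7.19 and 5.46 CPM and sgKDM5C #5 gave 3.54, 2.24 and 2.95 CPM, on either side of the sgCtrl libraries and without overlap, a difference of -1.05 ± 0.21 for #5 minus #4 (adjusted p = 0.00073). Over all tested genes, 0.74% were called higher and 2.97% lower between these guides.

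The difference between the KDM5C guides in GDF15 was not called in 10 of the 27 fits that left out 1 library and in 3 of 9 other settings. The smallest values were -0.88 (edgeR adjusted p = 0.013) without sgKDM5C #4 replicate 2 and -0.91 (adjusted p = 0.012) without sgKDM5C #5 replicate 2, one of the libraries placed last. Of the other populations, sgKDM5D #2 stood at 2.47 to 3.40 CPM, sgKDM5C #4/sgKDM5D #4 at 4.28 to 5.73 CPM and sgKDM5C #5/sgKDM5D #4 at 2.20 to 2.70 CPM. Their log2 fold changes of -0.39, 0.37 and -0.68 were not called. By Pearson correlation of log2 CPM over the 9 population means, the genes most like GDF15 among 10499 genes were ANAPC16 (r = 0.935), a subunit of the anaphase-promoting complex, KDM7A (r = 0.933), a histone demethylase, and TCTA (r = 0.928). These values are descriptive, and the 9 points come from 1 set of libraries.

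TP53I3 encodes a quinone oxidoreductase linked to oxidative stress and apoptosis, and it showed the largest change of any of the 10 genes, in a single population. It stood at 2.47, 2.12 and 2.54 CPM in sgCtrl and at 7.89, 7.73 and 8.83 CPM in sgKDM5D #4, with no overlap between the groups. The log2 fold change was 1.78 ± 0.17, or 3.43-fold, with an edgeR adjusted p of 1.2e-09. In the 7 other mutant populations the level stayed between 1.5 and 2.74 CPM, and the log2 fold changes lay between -0.36 and -0.13 with 0 calls. The difference between the KDM5D guides, #4 minus #2, was 1.96 ± 0.17 (adjusted p = 2.5e-10), beside 11.7% of all genes called higher in that contrast.

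The TP53I3 level was also far from additive in the combinations with sgKDM5D #4. The libraries of sgKDM5C #4/sgKDM5D #4 stood at 2.19, 1.89 and 1.62 CPM and those of sgKDM5C #5/sgKDM5D #4 at 2.19, 2.74 and 1.5 CPM, all below every sgKDM5D #4 library. Against the sum of the single changes, these combinations differed by -1.88 ± 0.25 (edgeR adjusted p = 9e-07) and -1.68 ± 0.25 (adjusted p = 5.9e-06). Of all genes, 8.69% and 8.47% were called lower and 6.38% and 6% higher in these contrasts. FAM228B, which lies over the whole of TP53I3 on the opposite strand and has 2281 counts in all libraries together, changed by 0.29 in sgKDM5D #4 (adjusted p = 0.16). The strand setting of the counting is not given in the sources used here, so reads of this pair may have been shared.

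SESN1 and SESN2 encode sestrins, which restrain the growth kinase mTORC1 and protect against oxidative stress, and SESN2 is also raised by ATF4. SESN1 did not separate any population from sgCtrl. It stood at 3.81, 5.75 and 5.24 CPM in sgCtrl, all 8 mutant populations overlapped with that range, and the log2 fold changes lay between -0.19 and 0.21 with standard errors of 0.18 to 0.19. edgeR and DESeq2 called it in 0 populations, and 0 had an unadjusted p under 0.05, beside 40.3% of all gene-by-population pairs. A change of up to 0.57 on the log2 scale, the upper end of the 95% intervals, lay within the precision of this gene.

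SESN2 changed in 1 population. It stood at 35.7, 30.4 and 34.6 CPM in sgCtrl and at 94.6, 105 and 69.4 CPM in sgKDM5C #5/sgKDM5D #2, well above all sgCtrl libraries. The log2 fold change was 1.42 ± 0.14 (edgeR adjusted p = 8.5e-09). The sgKDM5C #4 libraries stood at 43.5, 45.8 and 42.9 CPM (0.39 ± 0.14, adjusted p = 0.040), and those of sgKDM5C #5 at 54.4, 41 and 36.2 CPM (0.38 ± 0.14, adjusted p = 0.052). Neither single population overlapped with sgCtrl or reached the 1.5-fold threshold, and 20.1% and 14.8% of all genes lay wholly above sgCtrl in these populations. By contrast, sgKDM5C #4/sgKDM5D #4 lay below sgCtrl without overlap at 24.8, 29.3 and 26.8 CPM (-0.32 ± 0.14, adjusted p = 0.080).

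Of the genes that promote apoptosis, BBC3 encodes PUMA, a BH3-only protein that frees the mitochondrial pathway, BAX forms the pore in the outer mitochondrial membrane, and FAS is a death receptor at the cell surface. BBC3 stood at 6.98, 7.43 and 7.82 CPM in sgCtrl and at 20.1, 20.9 and 13.8 CPM in sgKDM5C #5/sgKDM5D #2, without overlap (1.30 ± 0.13, edgeR adjusted p = 1.6e-08). In sgKDM5D #4 it fell to 4.1, 4.55 and 4.8 CPM, again without overlap (-0.72 ± 0.15, adjusted p = 0.00018). The call in sgKDM5D #4 was lost without sgCtrl replicate 3 (-0.69, adjusted p = 0.0013), without sgKDM5D #4 replicate 1 (-0.68, adjusted p = 0.0017) and without the 4 libraries placed last (-0.72, adjusted p = 0.0016). It was also lost when the edgeR fit held just the populations compared (-0.73, adjusted p = 0.0013). Its 50 neighbours on chromosome 19 had a median of 0.39 in sgKDM5D #4, the opposite direction, and with neighbours removed BBC3 changed by -1.11.

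BBC3 was also higher in sgKDM5C #4, sgKDM5C #5 and both combinations with sgKDM5C #4, with log2 fold changes of 0.41 to 0.59 and edgeR adjusted p of 0.0018 to 0.032, and edgeR did not call it there. DESeq2 called it in sgKDM5C #4/sgKDM5D #2 (0.59, adjusted p = 0.00053). sgKDM5D #4 minus sgKDM5D #2 gave -0.78 ± 0.15 for BBC3 (edgeR adjusted p = 6.8e-05), beside 9.1% of all genes called lower between these guides. sgKDM5D #2 stood at 7.33, 7.84 and 7.92 CPM and overlapped with sgCtrl.

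BAX, the most abundant of the 10 genes per length in sgCtrl, differed least between populations. It stood at 84.9, 78.4 and 80.2 CPM in sgCtrl and between 71.1 and 101 CPM over all mutant libraries. The log2 fold changes lay between -0.11 and 0.24, with 0 calls by edgeR or DESeq2. The unadjusted p was under 0.05 in 3 of 8 populations, beside 40.3% of all gene-by-population pairs. Only sgKDM5C #4/sgKDM5D #4 had an adjusted p under 0.05 (0.24 ± 0.07, edgeR adjusted p = 0.014).

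FAS stood at 31, 45 and 34.9 CPM in sgCtrl, where the second library, one of those placed last, was the highest. In sgKDM5D #4 it fell to 24.6, 24.1 and 17.6 CPM, below all sgCtrl libraries (-0.74 ± 0.15, edgeR adjusted p = 0.00015). Without sgCtrl replicate 2 the change was -0.59 (adjusted p = 0.0026), without sgKDM5D #4 replicate 3 it was -0.61 (adjusted p = 0.0026), and without the 4 libraries placed last it was -0.57 (adjusted p = 4e-04), which is under the 1.5-fold threshold. With neighbouring genes removed it was -0.62 (adjusted p = 0.0014), and with just the compared populations in the edgeR fit -0.75 (adjusted p = 0.0032). The call was lost in each of these fits. In the combinations with sgKDM5C #4 the FAS level was 60.1, 48 and 45.1 CPM with sgKDM5D #2 and 51.2, 49.9 and 61.3 CPM with sgKDM5D #4. All 6 libraries lay above the sgCtrl libraries. The change was 0.47 ± 0.14 on the log2 scale (edgeR adjusted p = 0.017) in the first combination and 0.55 ± 0.14 (adjusted p = 0.0035) in the second, and neither was called. Without the 4 libraries placed last the second was 0.63 and was called. ACTA2, which overlaps FAS by 683 bases on the opposite strand, was called higher in the same combinations (1.69, adjusted p = 8.5e-07, and 2.62, adjusted p = 2e-10), and its part in the FAS counts was not tested.

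RRM2B encodes the p53-inducible small subunit of ribonucleotide reductase, which supplies deoxynucleotides for DNA repair. It stood at 26.3, 41.8 and 28.5 CPM in sgCtrl and at 43.7, 47 and 64.5 CPM in sgKDM5C #4/sgKDM5D #4, the highest mean of the 9 populations (0.68 ± 0.16, edgeR adjusted p = 0.0019). The sgCtrl range was wide because replicate 2 stood at 41.8 CPM. By edgeR with 1 mean per population RRM2B was called in 0 populations. Its unadjusted p was under 0.05 in 5 of 8, beside 40.3% of all gene-by-population pairs. In sgKDM5C #4/sgKDM5D #4 it was called by DESeq2 and by edgeR with no filter on low counts. With neighbouring genes removed the change there was 0.49 (adjusted p = 0.027). Without the 4 libraries placed last it was called higher in sgKDM5C #4 (0.72, adjusted p = 1.2e-05), sgKDM5C #4/sgKDM5D #4 (0.74, adjusted p = 1.6e-05) and sgKDM5C #5/sgKDM5D #2 (0.82, adjusted p = 1e-06). With all libraries and a term for those 4, the same populations were called, with changes of 0.68, 0.69 and 0.76.

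**Figure D3:**
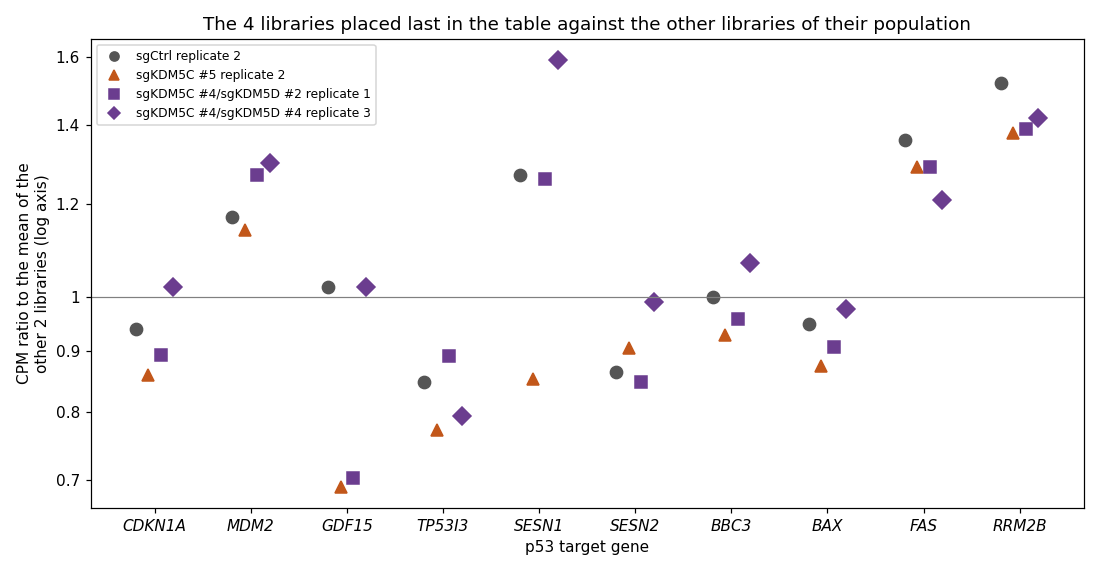
CPM of each p53 target gene in the 4 libraries placed last in the table, divided by the mean of the other 2 libraries of the same population and drawn on a log axis, with a line at 1. RRM2B lay at 1.38 to 1.52, FAS at 1.21 to 1.36 and MDM2 at 1.14 to 1.30 in all 4 libraries, and TP53I3 and BAX lay below 1 in all 4.

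The libraries placed last moved several of these genes in common. RRM2B, FAS and MDM2 were above both other libraries of the population in 4 of 4 cases, and TP53I3 and BAX were below both in 4 of 4. A term for these libraries in the edgeR fit gave 0.51 for RRM2B (adjusted p = 6.8e-07), 0.36 for FAS (adjusted p = 0.00056) and 0.28 for MDM2 (adjusted p = 3.2e-05). None of these reached the 1.5-fold threshold, and 26.9% of all tested genes had an adjusted p under 0.05 for that term. By the call rule 1.71% of all tested genes passed. For TP53I3 and BAX the term was -0.28 and -0.11 (edgeR adjusted p = 0.12 and 0.1). With the term, 12 pairs were called higher and 3 lower, and without these libraries 12 were called higher and 0 lower. The part of these libraries in the lower calls was not tested beyond these values.

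By population, sgKDM5C #5/sgKDM5D #2 held the most calls of the 10 genes: CDKN1A, GDF15, SESN2 and BBC3 were higher and 0 were lower, beside 7.92% of all tested genes called higher and 4.77% called lower there. sgKDM5D #4 held TP53I3 as higher and GDF15, BBC3 and FAS as lower, beside 10.7% and 7.44% of all genes. sgKDM5C #4 held CDKN1A as higher, beside 3.21% of all genes called higher and 1.77% lower. sgKDM5C #4/sgKDM5D #4 also held CDKN1A alone, beside 5.86% higher and 3.24% lower, and sgKDM5C #4/sgKDM5D #2 held CDKN1A and GDF15, beside 3.83% higher and 2.23% lower. In 3 populations edgeR called 0 of the 10 genes. The shares of all genes called higher and lower were 2.03% and 2.97% in sgKDM5C #5, 1.89% and 1.34% in sgKDM5D #2, and 3.3% and 3.87% in sgKDM5C #5/sgKDM5D #4. At an unadjusted p under 0.05 these 3 populations held 3, 2 and 2 of the 10 genes, beside 31.7%, 33.9% and 38.4% of all genes, so none of these counts exceeded the general share. DESeq2 called 0, 0 and 0.

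The median log2 fold change of the 10 genes was 0.30 in sgKDM5C #4, 0.38 in sgKDM5C #4/sgKDM5D #2, 0.30 in sgKDM5C #4/sgKDM5D #4 and 0.38 in sgKDM5C #5/sgKDM5D #2. It was -0.01 in sgKDM5C #5, -0.15 in sgKDM5D #2, -0.33 in sgKDM5D #4 and -0.05 in sgKDM5C #5/sgKDM5D #4. The median over all tested genes lay between -0.01 and 0.02 in every population. The 10 genes thus did not move as 1 group. In the 4 populations with a median of 0.30 or more, 7 or 8 of the 10 changes were positive. The changes of MDM2, SESN1 and BAX lay between -0.10 and 0.24 there. TP53I3 was lower in all 4, by -0.36 to -0.13. SESN2 was lower in sgKDM5C #4/sgKDM5D #4 (-0.32) and FAS in sgKDM5C #5/sgKDM5D #2 (-0.25), and none of these lower values was called.

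The 4 combinations were next set against the sum of their single populations, a contrast of the combination minus both singles plus sgCtrl. In sgKDM5C #5/sgKDM5D #2, GDF15 stood 2.36 ± 0.31 above that sum on the log2 scale (edgeR adjusted p = 3.5e-06), SESN2 1.13 ± 0.20 (adjusted p = 0.00015) and CDKN1A 0.92 ± 0.12 (adjusted p = 2.8e-06), beside 2.99% of all genes called higher and 2.07% lower in this contrast. In sgKDM5C #4/sgKDM5D #4, FAS stood 1.08 ± 0.20 above the sum (adjusted p = 0.00013) and MDM2 0.79 ± 0.14 (adjusted p = 6e-05), beside 6.38% of all genes. The MDM2 value was 0.32 (adjusted p = 0.083) with neighbouring genes removed and 0.58 without the 4 libraries placed last, and the FAS value was 0.86 (adjusted p = 0.0019) with neighbours removed. For sgKDM5C #4/sgKDM5D #2, 0 of the 10 genes were called by edgeR, 2 had an unadjusted p under 0.05 (26.6% of all genes did) and DESeq2 called 0, beside 1.01% of all genes called higher and 1.09% lower by edgeR. Over the mean of the 4 combinations GDF15 was called (1.19 ± 0.23, adjusted p = 0.00034), beside 3.21% higher and 3.67% lower.

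**Figure D4:**
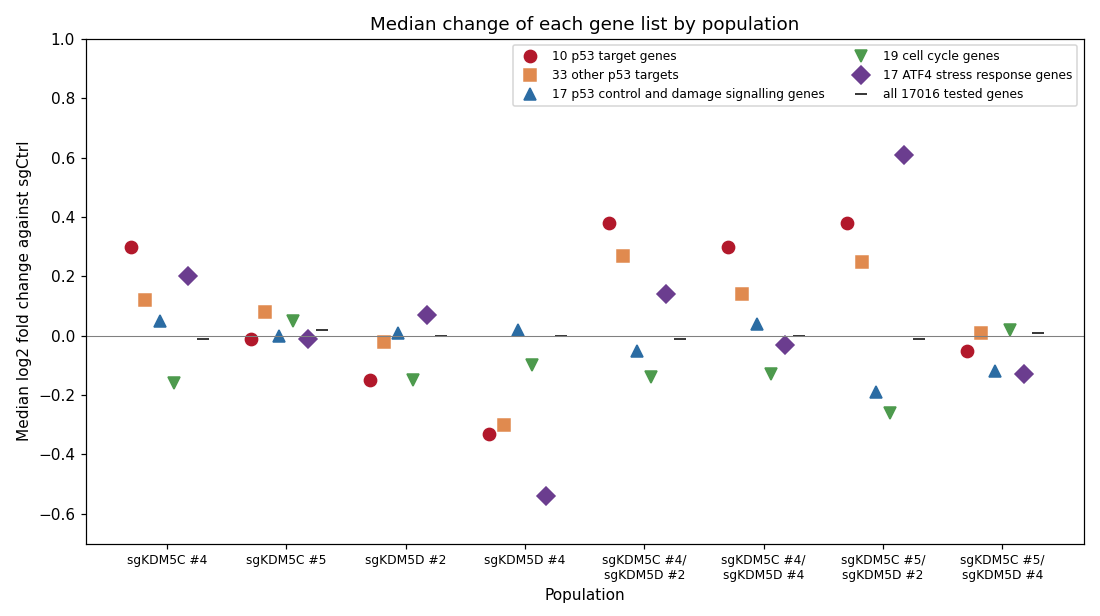
Median log2 fold change against sgCtrl in each mutant population for the 10 p53 target genes, 33 other p53 targets, 17 genes that control p53 or signal DNA damage, 19 cell cycle genes, 17 ATF4 stress response genes and all 17016 tested genes. The medians of the 10 genes ranged from -0.33 to 0.38 and those of the ATF4 list from -0.54 to 0.61, with both lists lowest in sgKDM5D #4.

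Other genes of the pathway gave a mixed picture as well. Of 33 other tested p53 targets over 8 populations, 21 of 264 pairs were called higher (7.95%) and 11 lower (4.17%), beside 4.84% and 3.45% over all genes, so the lower share was near that of all genes. TRIM22, an interferon- and p53-inducible ubiquitin ligase, was called in 5 populations, higher in sgKDM5C #4 (1.11) and 3 combinations (1.13 to 1.53) and lower in sgKDM5D #4 (-1.30). BTG2, an antiproliferative cofactor, was called higher in all 4 combinations, by 0.73 to 1.65. EDA2R, a receptor of the TNF family, was called higher in 3 combinations (0.69 to 1.10) and lower in sgKDM5D #4 (-1.95). TRIM22 and EDA2R thus went in opposite directions in sgKDM5D #4 and in 3 combinations. GDF15 did so for the 2 combinations where it was called higher. In sgKDM5C #5/sgKDM5D #4 GDF15 was lower (-0.68) and was not called.

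Among the 17 tested genes that control p53 or signal DNA damage, 4 of 136 pairs were called higher (2.94%) and 7 lower (5.15%), beside the same 4.84% and 3.45%. TP73, a p53 family member, stood at 3.46 to 4.07 CPM in sgCtrl and at 0.187 to 0.611 CPM in every library of sgKDM5C #4, sgKDM5D #4 and both combinations with sgKDM5C #4. It was called lower in 5 populations, with log2 fold changes of -3.45 to -1.32. The libraries at 0.187 to 0.611 CPM held just 5 to 17 reads of it each, beside 94 to 101 in sgCtrl. The kinase ATM was called lower in sgKDM5C #5/sgKDM5D #4 (-0.59), the kinase CHEK1 lower in sgKDM5C #5/sgKDM5D #2 (-0.62), and TP53BP1, which binds at breaks, higher in sgKDM5D #4 (0.65).

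Transcripts that follow the cell cycle and stress were read beside them. Of 19 cell cycle genes, 1 of 152 pairs was called higher (0.658%) and 4 lower (2.63%). The higher call was KIF23, a kinesin of cytokinesis, in sgKDM5D #4 (0.85), and the lower calls were RRM2, another small subunit of ribonucleotide reductase, in sgKDM5D #4 (-0.83) and sgKDM5C #5/sgKDM5D #2 (-0.74), E2F1, a transcription factor of S phase, in sgKDM5D #4 (-0.85), and CDC20, an activator of the anaphase-promoting complex, in sgKDM5C #5/sgKDM5D #2 (-0.70). In that last population 11 of 19 cell cycle genes had an adjusted p under 0.05 and were lower, beside 23% of all genes. For the 17 tested ATF4 stress response genes, 19 of 136 pairs were called higher (14%) and 12 lower (8.82%), beside 4.84% and 3.45% over all genes. Of these calls, 8 higher and 0 lower were in sgKDM5C #5/sgKDM5D #2, where SESN2 and GDF15 were also highest and 7.92% and 4.77% of all genes were called. In sgKDM5D #4, 2 were higher and 7 lower, beside 10.7% and 7.44% of all genes. Their part in the changes of SESN2 and GDF15 was not tested. STC2, a secreted glycoprotein, was called higher in 6 populations (0.78 to 1.22), ATF3, a stress-induced transcription factor, higher in 4 (1.39 to 1.86), and DDIT3, which encodes CHOP, lower in 4 (-0.72 to -0.59).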

How the data were processed

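RNA-seq counts were analysed for 27 libraries of 786-O cells. RNA was prepared with a stranded kit and sequenced paired-end, and the authors' processing notes name Trimmomatic 0.38, STAR 2.5.2b and GRCh37. The authors deposited raw read counts per Ensembl gene in 1 table, and the counting tool, its strand setting and the annotation are not given in the sources used here. Of 57773 gene identifiers, 55538 matched a symbol.

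Genes with a summed count of at least 120 were kept and scaled by TMM, and 1 mean per population was fitted with edgeR 4.0.16 (quasi-likelihood test, two-sided) with limma 3.58.1 in R 4.3.3. Calls needed a Benjamini-Hochberg adjusted p under 0.001 and over 1.5-fold, thresholds taken from the study. The common biological coefficient of variation was 0.0973. No libraries were duplicates (libraries of a population differed with a chi-square statistic of 4.07 to 35.1 per degree of freedom). Alternatives included DESeq2 1.42.0, other filters and scaling, a replicate term, removal of the median change of 50 neighbouring genes and leaving out each library. Those on the 4 libraries placed last and on single combinations were chosen after seeing the data.

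All 10 genes were named. From each of the lists of other p53 targets, cell cycle and ATF4 genes, the 3 called in the most populations were named, with ties settled by the mean change. In the cell cycle list CDC20, E2F1 and KIF23 tied at 1 population, and KIF23, which the rule left out, was named after its values were seen. From the p53 control list, genes called at least once were named, and some results are not reported here. The genes and lists were chosen with earlier results of these data known. The functions were tested on simulated data. Of the listed genes, 1 each of the p53 control, other p53 target and ATF4 lists had too few counts to be tested. Sequences were read from GRCh37.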

Additional observations from a re-analysis of the deposited data

Results flagged for a closer look

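The results below are differences between effects, each tested as a contrast in the same edgeR fit. Populations had 3 libraries each, too few to test single libraries for standing apart.

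Between guides to the same gene, GDF15 differed by -1.05 (SE 0.21, adjusted p = 0.00073) for sgKDM5C #5 minus #4. For sgKDM5D #4 minus #2, TP53I3 differed by 1.96 (SE 0.17, adjusted p = 2.5e-10) and BBC3 by -0.78 (SE 0.15, adjusted p = 6.8e-05). The TP53I3 and BBC3 differences were called in all 27 fits that left out 1 library and in all 9 other settings at the same thresholds. That of GDF15 was not called in 10 of the 27 and in 3 of the 9.

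Over the mean of the 4 combinations, GDF15 stood 1.19 (SE 0.23, adjusted p = 0.00034) above the sum of the single populations. This was not called without sgCtrl replicate 1 (1.21, adjusted p = 0.0012), without sgCtrl replicate 2 (1.18, adjusted p = 0.0018), without sgCtrl replicate 3 (1.21, adjusted p = 0.0013) or without the 4 libraries placed last (1.13, adjusted p = 0.0023).

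In single combinations, sgKDM5C #5/sgKDM5D #2 stood above the sum by 2.36 for GDF15, 1.13 for SESN2 and 0.92 for CDKN1A. In sgKDM5C #4/sgKDM5D #4 the difference was 1.08 for FAS, 0.79 for MDM2 and -1.88 for TP53I3, and in sgKDM5C #5/sgKDM5D #4 it was -1.68 for TP53I3. The FAS value was not called with neighbouring genes removed, and the MDM2 value was not called there or without the 4 libraries placed last. The 5 others were called in all 27 fits that left out 1 library. They were also called in all 8 other settings run for these contrasts at the same thresholds.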

How the results depend on the processing

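With all libraries, 9 pairs of a gene and a population were called higher, 3 lower, 3 between guides and 1 in the mean interaction, and 32 among other p53 targets. The interaction count was 2 with no filter, 2 with DESeq2, 4 with neighbouring genes removed and 0 without the 4 libraries placed last. When each fit held just the populations it compared, 1 pair was lower and 20 of the other targets were called. Without the libraries placed last 0 were lower. At an adjusted p under 0.05 with any fold the counts were 24, 6, 9, 6 and 117, and over 2-fold they were 5 higher, 1 lower and 16 other targets. By combination the interaction count was 0 for sgKDM5C #4/sgKDM5D #2, 3 for sgKDM5C #4/sgKDM5D #4, 3 for sgKDM5C #5/sgKDM5D #2 and 1 for sgKDM5C #5/sgKDM5D #4. The cause was not tested. Leaving out 1 library gave 8 to 11 higher, 1 to 3 lower, 2 to 4 between guides, 0 to 2 in the interaction and 30 to 33 other targets.

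Replicate numbers did not pair the libraries: over 108 same-numbered pairs the median correlation of deviations was -0.06, and 2 of 27 libraries correlated best with their own number. With a replicate block the counts were 8, 3, 2, 1 and 32. Of 30 pairs with an adjusted p under 0.05, 0 changed sign in any setting. These pairs were picked by that p in the same data, so a stable sign adds little. Among the 50 other pairs, the sign changed 24 times over the other settings, at values of -0.13 to 0.17. It changed 45 times in the fits that left out 1 library.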
